A study of Mus musculus with 8 samples.

Results

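The 10 genes described here encode proteins that coat, shape or empty the lipid droplets of the cell, and the rule lists them by name. The 10 genes are Plin2, Plin3, Plin4, Plin5, Cidea, Cidec, Fitm2, Pnpla2, Abhd5 and G0s2. They were taken from 22180 genes that the array names with a probe set of a single symbol. The genes were chosen with earlier results of these data known. Where a gene had several probe sets, the brightest on average over all arrays was kept, which is a choice by measured value. Liver RNA of male C57BL/6J mice was measured on whole-transcript arrays, with 4 wild type arrays and 4 of a knock-in of the E167K variant of Tm6sf2, and the labels call the wild type animals littermates. The labels disagree on diet: the series description has all mice on high-fat food for 20 weeks, while the treatment note has a fat-free sucrose diet or chow for 14 weeks, so no result is tied to a diet. Age, hour of collection and time since the last meal are not stated in the labels. The knock-in is a change of the germ line, so every cell type of these livers carries it.

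A lipid droplet is a store of triglyceride and sterol ester under a single layer of phospholipid. Perilipins (Plin2 to Plin5) sit on that layer and control which lipases reach the fat inside, CIDE proteins (Cidea and Cidec) sit where droplets touch and let them fuse into larger ones, and Fitm2 helps droplets form at the endoplasmic reticulum. Pnpla2, also called ATGL, takes the first fatty acid off triglyceride; Abhd5, also called CGI-58, activates it and G0s2 inhibits it. In liver, Plin2 is the main coat protein and is known to follow the amount of stored fat, while Cidea and Cidec are low in lean liver and high in fatty liver. Tm6sf2 helps load lipid onto the very low density lipoprotein that the liver secretes, so triglyceride that is not secreted can go to droplets.

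The promoters below are shown because they belong to the droplet genes whose levels varied most closely together over the arrays (Plin3, Plin5 and Fitm2). Those of Plin2, the most studied coat gene of liver, and of Cidec, which had the largest SD within genotypes, are shown as well. They were taken from RefSeq, build GRCm38.p6, and run from 250 bases before the annotated start to 30 bases after it. They lie at chr4:86670030-86670309 for Plin2, chr17:56290482-56290761 for Plin3, chr17:56117519-56117798 for the first of 2 Plin5 windows, chr2:163472600-163472879 for Fitm2 and chr6:113435731-113436010 for the first of 2 Cidec windows, all on the minus strand. Capitals mark matches on either strand to the nuclear receptor core hexamer AGGTCA, the E-box CACGTG or the GC box GGGCGG.
Plin2: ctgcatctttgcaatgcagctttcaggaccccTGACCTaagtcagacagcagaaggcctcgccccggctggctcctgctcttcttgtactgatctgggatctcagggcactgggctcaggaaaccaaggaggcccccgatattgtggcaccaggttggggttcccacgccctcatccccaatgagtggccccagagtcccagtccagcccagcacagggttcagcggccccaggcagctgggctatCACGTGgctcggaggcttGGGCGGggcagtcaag
Plin3: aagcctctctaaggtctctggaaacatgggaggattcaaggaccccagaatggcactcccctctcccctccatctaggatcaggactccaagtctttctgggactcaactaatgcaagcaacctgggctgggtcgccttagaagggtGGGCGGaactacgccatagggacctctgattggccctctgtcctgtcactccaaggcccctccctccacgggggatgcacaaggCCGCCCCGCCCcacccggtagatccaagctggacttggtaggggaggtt
Plin5: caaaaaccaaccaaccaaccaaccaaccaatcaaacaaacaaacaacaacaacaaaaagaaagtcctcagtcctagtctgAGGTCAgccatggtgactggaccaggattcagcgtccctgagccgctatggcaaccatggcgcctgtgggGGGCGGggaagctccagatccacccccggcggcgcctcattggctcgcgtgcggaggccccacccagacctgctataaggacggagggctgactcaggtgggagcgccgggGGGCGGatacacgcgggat
Fitm2: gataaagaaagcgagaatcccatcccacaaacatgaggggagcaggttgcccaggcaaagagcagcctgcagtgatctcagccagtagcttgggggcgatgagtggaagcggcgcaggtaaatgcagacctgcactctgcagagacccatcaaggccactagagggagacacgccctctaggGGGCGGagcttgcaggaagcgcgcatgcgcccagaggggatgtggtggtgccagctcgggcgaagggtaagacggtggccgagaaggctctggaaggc
Cidec: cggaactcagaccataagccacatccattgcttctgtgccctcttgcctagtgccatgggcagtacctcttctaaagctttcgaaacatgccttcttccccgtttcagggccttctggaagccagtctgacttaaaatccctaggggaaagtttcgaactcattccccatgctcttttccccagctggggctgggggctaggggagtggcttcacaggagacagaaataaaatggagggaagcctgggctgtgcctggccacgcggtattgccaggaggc

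The Plin2 window held all 3 of these motifs, with the E-box spanning the start from base -4 to base 2, a core hexamer at -218 to -213 and a GC box at 15 to 20. Plin3, Plin5 and Fitm2 each had at least 1 GC box, Plin5 also had a core hexamer at -170 to -165, and the Cidec windows had none of the motifs searched. RefSeq windows of 300 bases were searched for 9 of the 10 genes, 11 windows in all. Cidea had no window in this search, so the counts do not cover it. The windows of 1 chromosome were left out for the 10 genes but kept in the shares of all windows. The hexamer was in 4 of the 11, against 16.3% of all 32851 windows. The GC box was in 8 of the 11, against 35.7%, and the E-box in 1, against 7.15%. The 2 Plin5 windows overlap and share a GC box, so counts of windows take Plin5 in more than once. By gene, the hexamer was in 3 of the 9 and the GC box in 7. The TATA box TATAAA (13.6% of all windows), the D-box TTATGNAA (3.38%) and a direct repeat of the hexamer with 1 base between (0.0396%) were in none of the 11. A match is a run of letters, not a bound site. In Plin3 a pair of GC boxes share 1 base, at -14, and no match overlapped one to a different motif.

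Values are log2 expression per probe set, so a difference of 1 is a doubling, and levels are compared between arrays for 1 gene, never between genes. The genotypes were compared by limma, knock-in minus wild type, over 13449 genes that lay above a dim limit (the 40th percentile of an array's single-symbol probe sets, 3.46 to 3.50) on at least 4 of the 8 arrays, and all 10 genes were among them. After Benjamini-Hochberg adjustment over those genes, 0 of the 10 passed the threshold of 0.05, against 0.0669% of all tested genes. At an unadjusted p under 0.05 there were 2 of the 10, both lower in the knock-in, against 11.3% of tested genes in either direction and 5.29% lower. The 4 knock-in and 4 wild type arrays overlapped in each of the 10 genes, while they did not overlap in 7.16% of tested genes. Over the 10 genes the median change was -0.10, with 4 higher and 6 lower, beside 0.0046 over all tested genes. The arrays had medians of 3.73 to 3.80 and correlated with each other at 0.973 to 0.980. In whole liver, fewer cells of a type and less RNA per cell cannot be told apart.

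**Figure D1:**
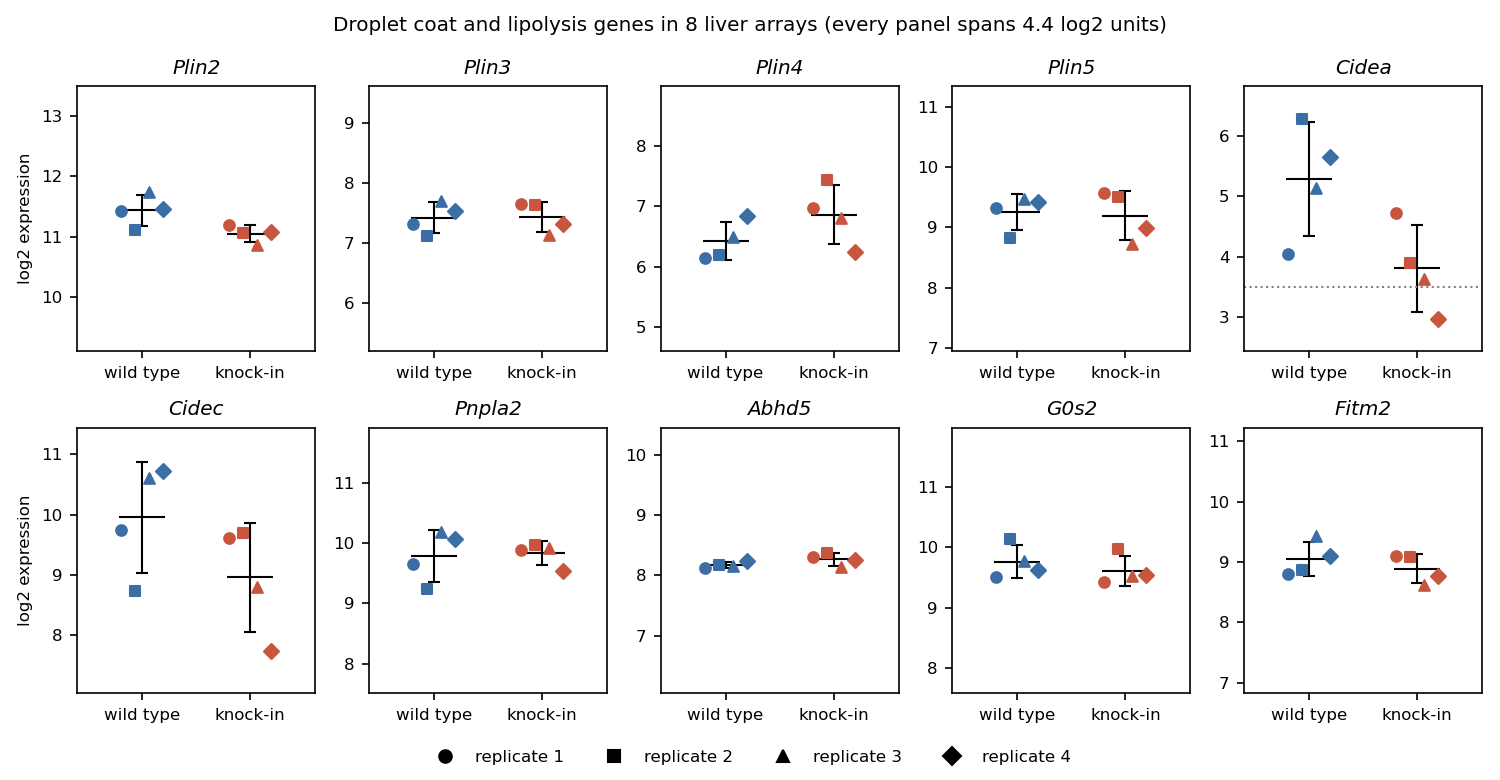
Log2 expression of each of the 10 genes (vertical axis, the same span in every panel) in 4 wild type (blue) and 4 knock-in (red) arrays; the marker shape is the replicate number, and bars are the mean and SD of 4 arrays. The dotted line in the Cidea panel is the highest dim limit, 3.50, and Cidea and Cidec had the largest SDs of the 10 genes in both genotypes, 0.95 and 0.92 in wild type and 0.72 and 0.90 in the knock-in, where Plin4 followed at 0.50.

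Cidea had the largest difference of the 10. It measured 4.05, 6.29, 5.14 and 5.65 in wild type replicates 1 to 4, and 4.72, 3.90, 3.64 and 2.97 in knock-in replicates 1 to 4. Thus 3 of the 4 knock-in arrays lay under the lowest wild type array, while knock-in replicate 1 lay within the wild type range. The group values were 5.28 ± 0.95 and 3.81 ± 0.72 (SD, n = 4 each). The change was -1.47 (95% interval -2.59 to -0.36, SE 0.49, unadjusted p = 0.0150, limma adjusted p = 0.319), or 0.360 times the wild type level with an interval of 0.166 to 0.778. An exact two-sided permutation test gave p = 0.0571, where 4 against 4 arrays allow no less than 0.0286. Knock-in replicate 4 lay below the dim limit, where values have little meaning, so the size of this difference is uncertain. Leaving out 1 array at a time moved the change between -1.89 and -1.14.

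Cidec, which joins droplets in the same way and is known for large droplets, differed by less and scattered more. Its values were 9.75, 8.74, 10.61 and 10.73 in wild type and 9.61, 9.70, 8.81 and 7.75 in knock-in replicates 1 to 4. Wild type replicates 1, 3 and 4 were above every knock-in array, but wild type replicate 2 was lower than 3 of the 4. The change was -0.99 (95% interval -2.20 to 0.21, SE 0.53, limma adjusted p = 0.528), with group values of 9.96 ± 0.92 and 8.97 ± 0.90 (SD, n = 4 each, exact permutation p = 0.171). It was -0.59 and -1.40 at the extremes of leaving out 1 array, so single arrays decide its size. The value nearest 0 came without knock-in replicate 4, and the farthest without wild type replicate 2. In that last fit limma's unadjusted p was 0.0194, the only one of the 8 under 0.05.

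Cidea and Cidec were among the most variable genes of these livers within a genotype. The SD within genotypes was 0.84 for Cidea and 0.91 for Cidec, larger than in 99.5% and 99.7% of tested genes, whose median was 0.19. Within wild type alone Cidea spanned 4.72-fold and Cidec 3.99-fold from the lowest array to the highest, and within the knock-in 3.37-fold and 3.86-fold. Abhd5 lay at the other end, with an SD of 0.08, larger than in 7.06% of tested genes. The other 7 genes had SDs of 0.21 to 0.42, larger than in 57.9% to 92.2% of tested genes.

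Among the perilipins, Plin2 had the lowest unadjusted p, and it did not pass over all genes. It measured 11.43, 11.10, 11.74 and 11.46 in wild type and 11.20, 11.07, 10.85 and 11.08 in knock-in replicates 1 to 4. Except for knock-in replicate 1, each knock-in array lay under the lowest wild type array. The group values were 11.43 ± 0.26 and 11.05 ± 0.14 (SD, n = 4 each). The change was -0.39 (95% interval -0.70 to -0.07, SE 0.14, unadjusted p = 0.0219, limma adjusted p = 0.340, exact permutation p = 0.0571), or 0.765 times the wild type level. It ran from -0.50 to -0.28 on leaving out 1 array, and the unadjusted p was under 0.05 in 6 of those 8 fits, the exceptions being the fits that left out replicate 3 of either genotype.

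Plin4, a long perilipin known mainly from adipose tissue and muscle, was on the other side of 0. It measured 6.15, 6.20, 6.50 and 6.85 in wild type and 6.97, 7.44, 6.81 and 6.24 in knock-in replicates 1 to 4. Knock-in replicates 1 and 2 lay above the wild type range, and the other two lay within it. The change was 0.44 (95% interval -0.13 to 1.01, SE 0.25, limma adjusted p = 0.555, exact permutation p = 0.2). Single arrays moved it: limma gave 0.25 without knock-in replicate 2 (unadjusted p = 0.301) and 0.65 without knock-in replicate 4 (unadjusted p = 0.0150), the latter being the only one of those 8 fits under 0.05. Plin2 and Plin4 thus had point estimates of opposite sign, and neither passed over all genes.

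Plin5, which ties droplets to mitochondria, and Plin3, which is found both in the cytosol and on new droplets, had means that differed by less than their spread. Plin5 measured 9.32, 8.83, 9.47 and 9.43 in wild type and 9.57, 9.51, 8.72 and 8.99 in knock-in replicates 1 to 4, a change of -0.06 (95% interval -0.55 to 0.43, SE 0.22, limma adjusted p = 0.951). Plin3 measured 7.32, 7.11, 7.70 and 7.54 in wild type and 7.65, 7.64, 7.14 and 7.32 in knock-in, a change of 0.02 (95% interval -0.35 to 0.38, SE 0.16, limma adjusted p = 0.981). In both genes wild type replicate 2 and knock-in replicate 3 were the lowest of their genotype. The sign of both small changes turned when single arrays were left out. Fitm2 measured 8.80, 8.87, 9.43 and 9.10 in wild type and 9.09, 9.09, 8.61 and 8.77 in knock-in. Its change was -0.16 (95% interval -0.54 to 0.22, SE 0.17, limma adjusted p = 0.776). Knock-in replicates 1 and 2 lay within the wild type range, and knock-in replicates 3 and 4 lay below it. The change was -0.033 without wild type replicate 3 and -0.067 without knock-in replicate 3, and reached -0.24 without wild type replicate 1.

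The lipase and its 2 partners were close to 0. Pnpla2 measured 9.65, 9.23, 10.18 and 10.06 in wild type and 9.89, 9.97, 9.92 and 9.54 in knock-in replicates 1 to 4, and its change was 0.05 (95% interval -0.41 to 0.51, SE 0.20, limma adjusted p = 0.958). All 4 knock-in arrays lay inside the wild type range, and wild type replicate 2 was the lowest of the 8; without it the change was -0.13. Abhd5 measured 8.12, 8.17, 8.15 and 8.24 in wild type and 8.31, 8.37, 8.13 and 8.25 in knock-in, and its change was 0.10 (SE 0.08, limma adjusted p = 0.721). Its interval of -0.09 to 0.28 was the narrowest of the 10 and corresponds to 0.939 to 1.22 times the wild type level. Of the knock-in values, 3 exceeded all wild type values by small steps. The change was 0.062 without knock-in replicate 2 and 0.14 without knock-in replicate 3.

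G0s2, the lipase inhibitor, was the only one of the 10 with 2 probe sets, and they had opposite signs. The brighter one measured 9.51, 10.14, 9.77 and 9.62 in wild type and 9.42, 9.98, 9.52 and 9.54 in knock-in replicates 1 to 4, a change of -0.14 (95% interval -0.52 to 0.23, SE 0.17, limma adjusted p = 0.802). The dimmer one was at 6.28 ± 0.32 and 6.48 ± 0.30 (SD, n = 4 each), a change of 0.20 (SE 0.19, limma adjusted p = 0.750 in a fit over probe sets). Both were highest in replicate 2 of each genotype. The mean of both probe sets changed by 0.03, so these data give G0s2 no direction.

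**Figure D2:**
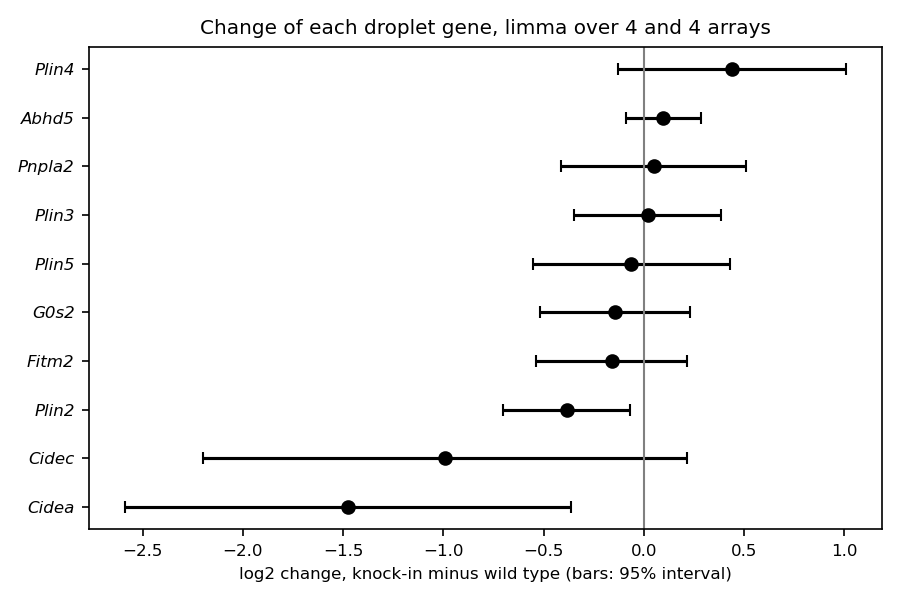
Log2 change of each of the 10 genes, knock-in minus wild type (horizontal axis), from limma over 4 and 4 arrays, with 95% intervals as bars. The intervals of Cidea and Plin2 do not reach 0 before adjustment, Cidec and Plin4 reach across it, and Abhd5 has the narrowest interval.

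Covariation over the 8 arrays was examined in all 45 pairs of the 10 genes, with an exact permutation test of each correlation and adjustment over the 45. The arrays share their hybridization and scaling as well as their biology, and pairs that share a gene are not independent. The median of Pearson's r was 0.455 over the 45 pairs, beside 0.001 over all 90431076 pairs of tested genes. An r of at least 0.7 was reached by 10 of the 45 pairs (22.2%), and by 3.18% of all pairs. When each genotype's mean was first subtracted, the median was 0.607 and 13 pairs (28.9%) reached 0.7, beside 0.002 and 4.39%. The covariation was therefore present among arrays of the same genotype.

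Plin3 and Plin5 were the closest pair, and the only one past the threshold. Their r was 0.933 (exact permutation p = 0.000843, 0.0379 adjusted over 45 pairs; Spearman's rho 0.881, exact permutation p = 0.00724, 0.324 adjusted). Without wild type replicate 2 and knock-in replicate 3, the 2 arrays farthest from the median of Plin3, r was 0.825. Leaving out 1 array at a time gave r of 0.911 to 0.977, and r was 0.943 after the genotype means were subtracted. Plin3, Plin4 and Plin5 lie on chromosome 17 of GRCm38.p6. Plin4 and Plin5 are neighbours there with no protein-coding gene between them, while 7 such genes lie between Plin5 and Plin3. Plin4 and Plin5, though adjacent, correlated at 0.467 (rho 0.619, exact permutation p = 0.236 and 0.115, adjusted p = 0.483 and 0.398), and at 0.489 without wild type replicate 1 and knock-in replicate 2.

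Fitm2 followed Plin3 at r of 0.867 (rho 0.762, exact permutation p = 0.00786 and 0.0368, adjusted p = 0.177 and 0.324), and at 0.910 without the same 2 arrays. Cidec and Pnpla2 had an r of 0.718 (rho 0.786, exact permutation p = 0.0439 and 0.0279, adjusted p = 0.198 and 0.324) and of 0.902 after the genotype means were subtracted. It was 0.685 without wild type replicate 4 and knock-in replicate 4. Plin2 and Cidec had an r of 0.753 (rho 0.714, exact permutation p = 0.0326 and 0.0576, adjusted p = 0.198 and 0.324), but 0.468 without wild type replicates 3 and 4. Those were the 2 arrays farthest from the median of Plin2, and leaving them out narrows its range. Leaving out 1 array at a time gave this pair an r of 0.679 to 0.846, and r was 0.632 after the genotype means were subtracted. Plin4 and Abhd5 had an r of 0.727 (rho 0.714, exact permutation p = 0.0418 and 0.0576, adjusted p = 0.198 and 0.324), and 0.323 without wild type replicate 1 and knock-in replicate 2. Each of these pairs missed the threshold after adjustment. The count of pairs past it was 0 on leaving out any 1 array except wild type replicate 2, and 3 without that one.

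**Figure D3:**
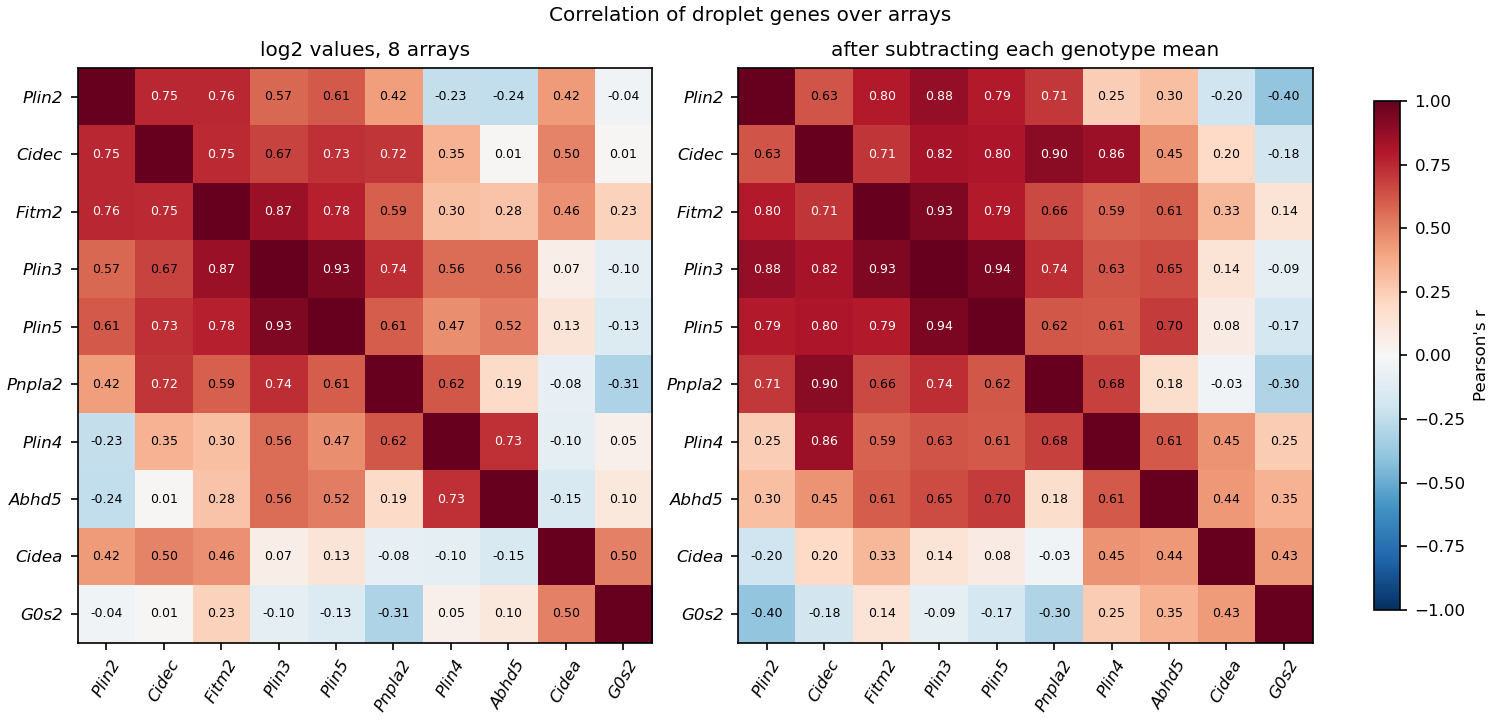
Pearson's r for each pair of the 10 genes over 8 arrays (left, log2 values; right, after subtracting each genotype's mean); red is positive, blue negative, and the number is r. Plin2, Cidec, Fitm2, Plin3, Plin5 and Pnpla2 form a block of positive values in both panels, with the lowest at 0.421 on the left and 0.620 on the right, and pairs with Cidea or G0s2 reach at most 0.503 on the left.

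Pairs with Cidea or G0s2 had lower correlations, from -0.310 (G0s2 and Pnpla2) to 0.503 (Cidea and G0s2), and none of these passed the threshold. Cidea and Cidec, the pair of fusion proteins, had an r of 0.496 over the 8 arrays (rho 0.429, exact permutation p = 0.212 and 0.299, adjusted p = 0.453 and 0.612). Single arrays moved it: without knock-in replicate 4 it was 0.168, without wild type replicate 2 it was 0.924, and without wild type replicate 2 and knock-in replicate 4 it was 0.888. Wild type replicate 2 had the highest Cidea and G0s2 of its genotype and the lowest Plin2, Plin3, Plin5, Cidec and Pnpla2. Wild type replicate 3 had the highest Plin2, Plin3, Plin5, Pnpla2 and Fitm2 of its genotype. In the knock-in, replicates 1 and 2 held the highest value of all 10 genes between them, 5 each, and replicates 3 and 4 the lowest value of 9. Of the 45 pairs, 9 had a negative r, and G0s2 or Cidea was in 7 of these, with G0s2 and Pnpla2 lowest at -0.310 (rho 0.095, exact permutation p = 0.461 and 0.840, adjusted p = 0.749 and 0.945). Without wild type replicate 2 and knock-in replicate 4 that r was 0.488, so it has no settled sign.

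**Figure D4:**
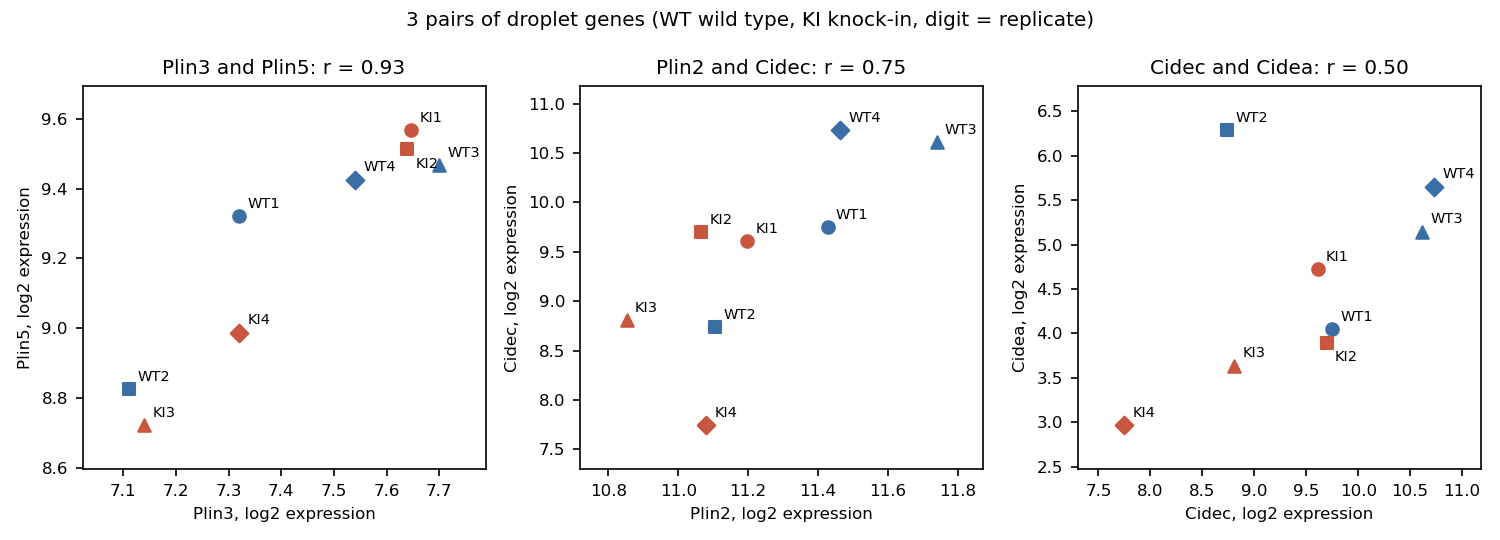
Log2 expression of 3 pairs of droplet genes, 1 point per array (blue wild type, red knock-in, the digit is the replicate number). Plin3 and Plin5 lie close to a line with both genotypes mixed along it, and in the panel of Cidec against Cidea wild type replicate 2 lies apart from the rest.

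The tested genes most like Plin2, Cidea and Cidec over the 8 arrays were ranked by Pearson's r, as a description with no test, since each is the top of 13449. For Cidec they were Cgref1 (0.968), Wbp2 (0.967), the mitochondrial acyl-CoA thioesterase Acot2 (0.962), Serinc2 (0.956) and Cpt1a (0.956), the enzyme that admits fatty acids to mitochondria. For Plin2 they were Bsdc1 (0.980), Adnp (0.969), the transcription factor Atf5 (0.968), Plpp5 (0.961) and the connexin Gjb2 (0.958). For Cidea they were the small GTPase Rab27b (0.944), the sialic acid receptor Cd33 (0.941), S100a14 (0.933), Asap1 (0.932) and Sytl5 (0.923), a protein that binds Rab27. Over 8 arrays, 46 tested genes reached 0.9 with Plin2, 43 with Cidec and 18 with Cidea. The changes of these neighbours ran from -1.15 (Cgref1) to -0.12 (Cpt1a), and the lowest limma adjusted p among them was 0.119 (Sytl5, -1.09, SE 0.21). They were picked by likeness over both genotypes to genes lower in the knock-in, so changes in the same direction are no separate result.

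Other droplet genes from lists were set beside the 10, and 0 in any of these lists passed over all genes. The lists, here and below, were chosen with earlier results of these data known, so their counts are descriptions only. Among the other droplet surface and biogenesis genes, 15 of 18 were tested, 9 were higher and 6 lower, and the median change was 0.02. The lowest unadjusted p belonged to Faf2, which recruits the machinery that removes proteins from droplets, at -0.20 (SE 0.08, limma adjusted p = 0.387). Plin1, the coat protein of adipocyte droplets, was below the dim limit on 7 of 8 arrays. Among the other triglyceride breakdown genes, 15 of 16 were tested, 6 were higher and 9 lower, with a median of -0.07. Lipa, the acid lipase that breaks down droplet fat in lysosomes, measured 11.80, 11.85, 11.89 and 11.99 in wild type and 11.53, 11.66, 11.55 and 11.49 in knock-in replicates 1 to 4. Its change was -0.33 (SE 0.08, limma adjusted p = 0.202). Its groups did not overlap, which held for no other of the 15 tested genes of this list. Among all tested genes the share without overlap was 7.16%, so a single such gene is near that share.

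Among genes that supply triglyceride, 15 of 16 were tested, and 4 were higher at an unadjusted p under 0.05, against 6.01% of tested genes that were higher at that level. Lpin1, which makes diacylglycerol, measured 9.60, 9.33, 9.31 and 10.53 in wild type and 11.64, 11.92, 11.46 and 10.71 in knock-in replicates 1 to 4, a change of 1.74 (SE 0.32, limma adjusted p = 0.111). The fatty acid carrier Fabp4 was at 0.62 (SE 0.14, limma adjusted p = 0.161), Dgat2, which completes triglyceride, at 0.36 (SE 0.10, limma adjusted p = 0.242) and the lipoprotein receptor Vldlr at 0.46 (SE 0.18, limma adjusted p = 0.363). The median of this list was 0.07, so most of its members were near 0. The groups did not overlap in 3 of the 15 tested genes (Lpin1, Fabp4 and Dgat2), against 7.16% of all tested genes.

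Transcription factors known to act on droplet genes had 15 of 16 members tested, 10 higher and 5 lower, with a median of 0.16. Srebf1, the driver of fat synthesis, was at 1.01 (SE 0.19, limma adjusted p = 0.111), Foxo1, which insulin restrains, at 0.56 (SE 0.11, limma adjusted p = 0.119) and the coactivator Ppargc1a at 0.33 (SE 0.11, limma adjusted p = 0.314). Ppara was at -0.02 (SE 0.11, limma adjusted p = 0.974) and Pparg at -0.29 (SE 0.27, limma adjusted p = 0.734), and both nuclear receptors are known to induce perilipin and CIDE genes; they were added outside the naming rule after their values were seen. Pparg measured 7.21, 7.06, 6.81 and 7.08 in wild type and 7.02, 7.47, 6.24 and 6.25 in knock-in replicates 1 to 4. Knock-in replicates 3 and 4 were the lowest of the 8.

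Of other genes that PPAR receptors are known to induce, 14 of 18 were tested, and 13 were lower and 1 higher, with a median of -0.11, while 51.1% of all tested genes were higher. At an unadjusted p under 0.05, 4 of the 14 were lower, against 5.29% of all tested genes. Pdk4, the kinase that spares glucose, was at -1.17 (SE 0.37, limma adjusted p = 0.295), the hormone Fgf21 at -1.06 (SE 0.27, limma adjusted p = 0.202), the thioesterase Acot1 at -0.71 (SE 0.23, limma adjusted p = 0.316) and the peroxisomal enzyme Ehhadh at -0.43 (SE 0.11, limma adjusted p = 0.202). Clock genes were lists of their own, and 0 of them passed over all genes. At an unadjusted p under 0.05, 8 of 11 tested outputs and repressors were higher, against 6.01% of all tested genes, and 3 of 3 activators were lower, against 5.29%. The PPAR and clock lists too were chosen with earlier results of these data known, so these counts are descriptions only. The part of the clock genes in the droplet genes was not tested.

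**Figure D5:**
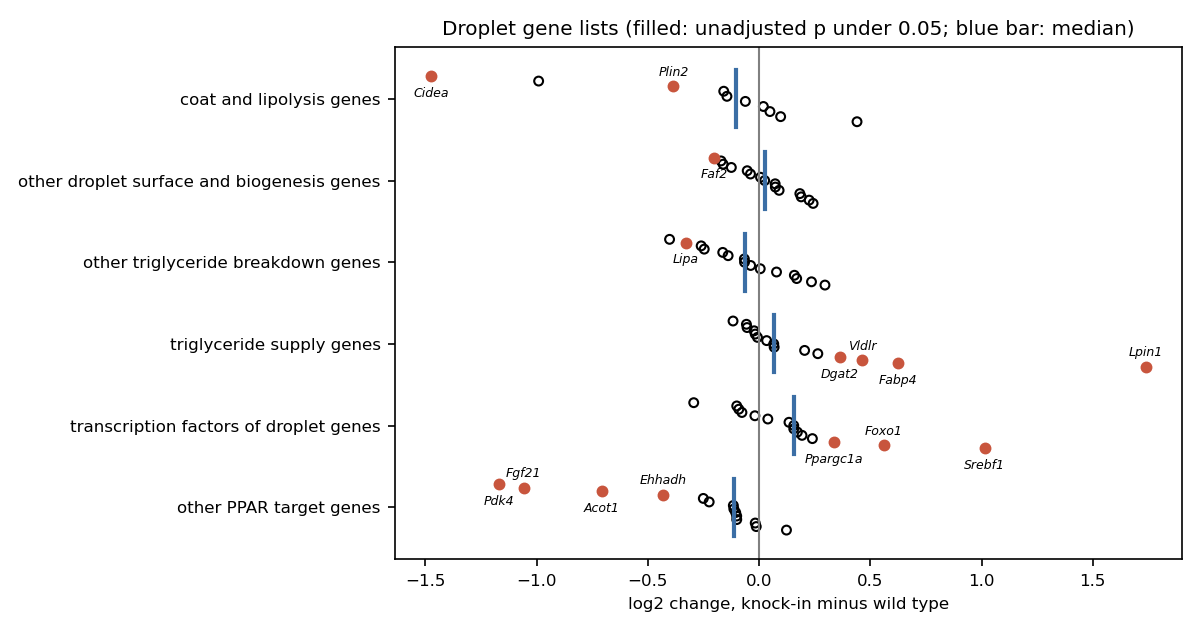
Log2 change, knock-in minus wild type (horizontal axis), of each tested gene of the 10 coat and lipolysis genes and 5 other lists, 1 circle per gene. The lists were chosen with earlier results of these data known. Filled circles have an unadjusted p under 0.05, blue bars are medians, and 0 of these genes passed over all 13449 genes.

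Because Cidea, Cidec and Plin4 are also known from fat tissue, markers of adipocytes were examined. Of 10 adipocyte markers, 9 had a single-symbol probe set and 4 of these (Adipoq, Lep, Plin1 and Adig) were dim; their values on the 8 arrays lay between 1.56 and 3.94, and Adipoq exceeded the limit only in knock-in replicate 1. The mean level over the 9 ran from 4.95 to 5.18 on wild type arrays and from 5.02 to 5.33 on knock-in arrays. Fabp4, higher in the knock-in as given above, is on this list but is also made by macrophages and endothelium. Of 5 brown adipocyte markers, Ucp1, Cox8b and Otop1 were dim, and 0 of the 2 tested had an unadjusted p under 0.05. All 10 hepatocyte markers were tested, with 9 higher and 1 lower, while 51.1% of all tested genes were higher. Their median change was 0.05, with array means of 11.78 to 11.92 on wild type arrays and 11.90 to 11.95 on knock-in arrays. The 10 markers of stellate cells, which keep retinoid in droplets of their own, had a median of 0.0047, with 5 higher and 5 lower and array means of 7.73 to 8.02 on wild type arrays and 7.63 to 8.11 on knock-in arrays. At an unadjusted p under 0.05, 0 markers of hepatocytes, stellate cells, Kupffer cells, monocytes and macrophages, neutrophils, cholangiocytes or lymphocytes differed. Among 6 sinusoidal endothelium markers, Lyve1 was at 0.73 (SE 0.23, limma adjusted p = 0.295). The part of changed cell shares in the droplet genes was not tested.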

How the data were processed

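Liver RNA was measured on 4 wild type and 4 knock-in arrays, and groups and replicate numbers came from the sample titles. The deposited table holds log2 expression per probe set; the submitters' processing notes name RMA and limma, without versions, while the genome build is not stated there. The method brings array distributions close together and compresses changes of dim probe sets. Of 41345 probe sets, 23521 had 1 gene symbol in the platform annotation; Entrez identifiers changed 0 symbols against RefSeq (GRCm38.p6). Per gene, the probe set brightest on average over all 8 arrays was kept, and 8731 of 22180 genes were left out as dim. Knock-in minus wild type was fitted with limma 3.58.1 in R 4.3.3 (lmFit, eBayes, genotype only, two-sided, threshold 0.05 after Benjamini-Hochberg adjustment over 13449 genes), which was tested on simulated data. Permutation tests were exact and two-sided. The labels do not say that each array is a separate animal, so the p-values reflect spread between samples that may be technical. Named genes were the 10 genes, up to 5 genes per list with the lowest unadjusted p under 0.05, and the 5 genes most like Plin2, Cidea and Cidec. The genes and lists were chosen with earlier results of these data known. Genes without a probe set of a single symbol were not analysed here. The number of arrays limits the precision.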

Additional observations from a re-analysis of the deposited data

How the results depend on the processing

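Of the 10 droplet genes, 0 passed over all genes in any of the 15 alternative fits, whose adjusted p ran from 0.186 (Cidea) to 0.999 (Pnpla2). Cidea, Cidec, Plin2 and Fitm2 stayed lower and Plin4 and Abhd5 higher in all 15, though leaving out 1 array moved Fitm2 between -0.24 and -0.033, Abhd5 between 0.062 and 0.14 and Plin4 between 0.25 and 0.65. The sign turned for Plin3 with array weights (-0.0037) and for G0s2 with the mean of its probe sets (0.029). Leaving out 1 array gave Plin3 -0.083 to 0.12, Plin5 -0.21 to 0.10 and Pnpla2 -0.13 to 0.18, and 1 to 3 of the 10 at an unadjusted p under 0.05. Over all tested genes, the 9 past the threshold became 2 with no filter, 26 with a stricter filter, 73 with a trended and robust prior, 25 with array weights and 24 with the mean of probe sets, and 1 to 13 on leaving out 1 array; the cause was not tested. With the replicate number as a block it was 2, and 0 of the 10 passed; same-numbered arrays shared only a number (correlations of their deviations -0.105 to 0.101, and 1 of 4 correlated best with its own number). The count of pairs past the threshold, 1, was 0 by Spearman's rho and 0 to 3 on leaving out 1 array. Probe sets near the dim limit, such as Cidea, limit what small changes can be seen.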

Other observations

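Several other genes outside the naming rule, chosen after their values were seen, are given as values. Hsd17b13, a droplet enzyme whose loss of function is known to protect human liver, measured 12.35 to 12.48 on wild type arrays and 12.32 to 12.56 on knock-in arrays. Its change was 0.02 (SE 0.09, limma adjusted p = 0.950). Pnpla3, the lipase relative known for a human fatty liver variant, was at 0.24 (SE 0.32, limma adjusted p = 0.836). Hilpda, another inhibitor of Pnpla2, was at -0.40 (SE 0.18, limma adjusted p = 0.453) and Mgll, which completes triglyceride breakdown, at -0.25 (SE 0.15, limma adjusted p = 0.596). Bscl2, the seipin that shapes new droplets, was at 0.19 (SE 0.14, limma adjusted p = 0.652), and wild type replicate 2, at 7.85, was its lowest array, as it was for Pnpla2. Elovl3 was 11.17 to 11.27 in knock-in replicates 1 to 3 and 12.40 in knock-in replicate 4, the array with the lowest Cidea, Cidec, Plin4 and Pnpla2 of its genotype.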
